A study of Homo sapiens with 2 samples.

Results

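The centromere of human chromosome 10 and the sequence beside it carried 145 of the 1518 nuclear peaks of HaCaT cells given 20 Gy of X-rays, and 167 of the 1929 nuclear peaks of unirradiated HaCaT cells (0 Gy). The peaks come from chromatin immunoprecipitated with an antibody against AIM2. Members were all rows of the deposited peak lists with a summit from 38 to 43 Mb of chromosome 10 on GRCh38, and none was dropped. The complete lists, mitochondrial peaks included, held 1525 peaks at 20 Gy and 1936 at 0 Gy. The label of the region was taken from its position, since no genome sequence or repeat annotation was used here.

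HaCaT is an immortalised, aneuploid line of human keratinocytes, the main cells of the epidermis. Both groups received the same fixation with formaldehyde and the same antibody, and each group is 1 library with no control library. The irradiated cells were given 20 Gy at 1.15 Gy per minute, and their sample title adds 4 h without saying from which event it counts. The unirradiated cells are labelled with a dose of 0 Gy and no treatment. The 20 Gy library kept 6423989 fragments after filtering and the 0 Gy library 8786091, so the depth at 20 Gy was 0.731 times that at 0 Gy. Pileup is the number of fragments that cover a peak's summit, and scaled pileup is that number per 1000000 kept fragments. Intervals are exact at 95%, cover counting error only, and say nothing of the spread between cultures, for which there is no replicate. Those of peak counts and of shares treat peaks or pairs as independent draws, although they come from the same libraries.

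AIM2 is a sensor of DNA whose HIN domain binds the backbone of the helix largely without regard to its sequence. After binding it recruits the adaptor ASC and caspase-1 into an inflammasome, which processes interleukin-1β and interleukin-18 and can end in pyroptosis. Human centromeres are built on alpha satellite, a tandem repeat arranged in higher-order arrays, and the pericentromere beside them holds other satellites and recently copied segments. The reference assembly represents such arrays by modelled sequence, and short reads can be placed there only where copies differ, so read density in these regions also follows mappability. Copy number of the chromosome and of the array was not analysed here.

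Nearly all of the peaks lay in 1 stretch without annotated genes. That stretch runs from 38719383 to 42149318 of chromosome 10, is 3.43 Mb long, and lies between the pseudogenes CHEK2P5 and KSR1P1. It held 145 of 145 summits at 20 Gy (100%, interval 97.5 to 100) and 165 of 167 at 0 Gy (98.8%, 95.7 to 99.9). The gene table has 49 genes in the 5 Mb window, of which 4 are protein-coding, 29 are pseudogenes and 14 are long non-coding RNAs, and no summit of either library lay in or within 1000 bp of any of them. The other 2 peaks at 0 Gy lay between the pseudogenes SEPTIN14P10 and ABCD1P2, 68352 bp beyond the first. The last peaks ended 49253 bp before KSR1P1.

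Along the window the peaks fell into 6 blocks, separated by gaps of 156 to 682 kb without a peak in either library. A block was closed wherever neighbouring summits of the joined lists lay more than 100 kb apart, a limit set after the positions were seen. Block 1, at 38528763 to 38529421, held 0 peaks at 20 Gy and 2 at 0 Gy. Block 2, at 38814174 to 38919892, held 4 and 5, and block 3, at 39601997 to 39634792, held 4 at 20 Gy and 3 at 0 Gy. Block 4 spans 1591 kb from 39936695 to 41527953 and held the bulk of the window, with 123 peaks of irradiated cells (84.8%) and 141 of unirradiated cells (84.4%). Block 5 is a compact run of 64.6 kb from 41846386 to 41910943 with 10 peaks at 20 Gy and 11 at 0 Gy. Block 6, at 42067268 to 42099908, held 4 at 20 Gy and 5 at 0 Gy. Since blocks were closed on the joined lists, the gaps are empty in both libraries by definition. Blocks 2 to 6 each held peaks of both libraries, and block 1 held peaks of the 0 Gy library only, with pileups of 15 and 16.

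**Figure D1:**
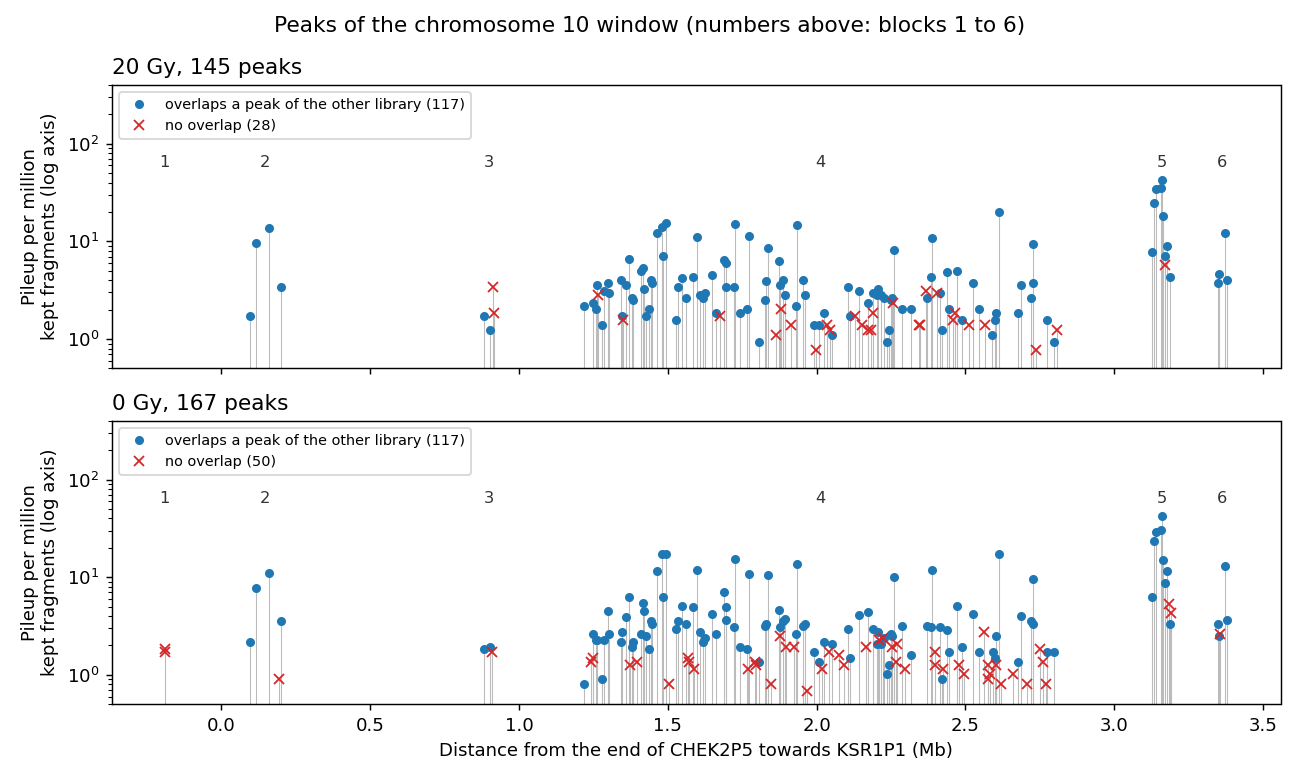
Each point is a peak of the 20 Gy library (upper panel) or the 0 Gy library (lower panel), placed by its distance in Mb from the end of CHEK2P5 (horizontal axis) and its scaled pileup (vertical log axis). Circles overlap a peak of the other library and crosses do not, the numbers mark the 6 blocks, and the 10 and 11 peaks of block 5 include the highest of the window.

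Within block 4 neighbouring summits were a median of 9773 bp apart at 20 Gy and 9278 bp at 0 Gy, with widest gaps of 63509 and 53664 bp. Each stretch of 250 kb from 40 to 41.25 Mb held 18 to 24 peaks of either library. The fullest were that starting at 40.75 Mb, with 23 peaks at 20 Gy and 24 at 0 Gy, and that starting at 40 Mb, with 22 at 20 Gy and 24 at 0 Gy. From 41.25 to 41.5 Mb the 20 Gy library had 13 peaks, against 22 at 0 Gy, and 11 of each were shared. No peak of either library lay from 39 to 39.5 Mb or from 42.25 to 43 Mb.

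The peaks were narrow. Median width was 241 bp at 20 Gy and 263 bp at 0 Gy, over a covered length of 37934 bp at 20 Gy and 47606 bp at 0 Gy. The caller's minimum length was 170 bp at 20 Gy and 177 bp at 0 Gy, and 9 of the 20 Gy peaks were shorter than 177 bp, a length at which no 0 Gy peak could be reported. The widest peak of both libraries was the same 1, in block 5, and measured 961 bp in each. In the irradiated library it covered 41883085 to 41884045, and in the unirradiated library 41883094 to 41884054, with pileups of 116 (interval 95.9 to 139) at 20 Gy and 133 (111 to 158) at 0 Gy.

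In irradiated cells the lowest, median and highest pileups were 5, 18 and 276, and in unirradiated cells they were 6, 22 and 370. Scaled pileup had medians of 2.80 at 20 Gy and 2.50 at 0 Gy, where the medians over all other nuclear peaks were 2.02 and 1.71. Strong peaks were a larger share of this window than of the rest of each list. On the −log10 scale the q-value reached 20 or more for 40 of 145 window peaks of irradiated cells (27.6%, 20.5 to 35.6), and for 59 of 167 of unirradiated cells (35.3%, 28.1 to 43.1). Among all other nuclear peaks that share was 18.5% at 20 Gy (16.5 to 20.7) and 19.2% at 0 Gy (17.4 to 21.1), with intervals that just overlap those of the window at 20 Gy and lie apart from them at 0 Gy. The 10 highest peaks made up 33.8% of the window's summed pileup at 20 Gy and 31.3% at 0 Gy.

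The 4 highest pileups of the window in each library lay in block 5. The highest peak started at 41879280 in both and ended at 41879539 in irradiated cells and at 41879621 in unirradiated cells. Its pileups were 276 (244 to 311) at 20 Gy and 370 (333 to 410) at 0 Gy. Scaled, these were 43.0 at 20 Gy and 42.1 at 0 Gy, a ratio of 1.02 (0.870 to 1.20). It ranked 40th of 1518 nuclear peaks at 20 Gy and 41st of 1929 at 0 Gy by pileup. The peak at 41875369 to 41875553 at 20 Gy had pileups of 227 at 20 Gy and 265 at 0 Gy, with a ratio of 1.17 (0.977 to 1.40). At 41859839 to 41860085 the pileups were 222 at 20 Gy and 257 at 0 Gy, with a ratio of 1.18 (0.983 to 1.42). At 41851670 to 41851952 they were 160 and 207, with a ratio of 1.06 (0.855 to 1.31). All 4 intervals held 1. The summits of these 4 pairs lay 1, 8, 1 and 20 bp apart.

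Block 4 held the next 4 of the 8 strongest pairs, ranked by the lower of the −log10 q-values in the libraries. At 41331650 to 41331935 the pileups were 128 (107 to 152) at 20 Gy and 152 (129 to 178) at 0 Gy, and this pair had the highest fold enrichment of any window peak at 20 Gy, 31.3, against 30.1 at 0 Gy. At 40214170 to 40214515 the pileups were 100 at 20 Gy and 152 at 0 Gy, with fold enrichments of 27.1 and 31.3. At 40654443 to 40654717 they were 94 at 20 Gy and 119 at 0 Gy, and at 40445628 to 40446033 they were 97 and 134. The depth-scaled ratios of these 4 pairs were 1.15 (0.903 to 1.47), 0.8998 (0.692 to 1.17), 1.08 (0.815 to 1.43) and 0.990 (0.754 to 1.295), so none stood apart from 1 beyond counting error.

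Block 5 combined high pileup with moderate fold enrichment. Its median scaled pileup was 13.5 at 20 Gy and 11.5 at 0 Gy, where block 4 had 2.65 at 20 Gy and 2.28 at 0 Gy. Median fold enrichments differed far less, at 9.85 in block 5 and 7.92 in block 4 at 20 Gy, and at 10.7 and 8.39 at 0 Gy. The caller's local background can be recovered from the deposited values, because it adds 1 to both pileup and background before dividing. The background so recovered gave back every deposited p-value of the window to within 3.87e-05 on the −log10 scale. The median local background was 7.97 fragments in block 5 and 1.06 in block 4 at 20 Gy, and 8.50 and 1.37 at 0 Gy. At the highest peak it reached 22.97 fragments at 20 Gy and 29.8 at 0 Gy. The background is averaged over up to 10000 bp and includes the peak itself. It exceeded the genome average plus an estimate of what the peak's own fragments add, its pileup times its width over 10000 bp, in 10 of 10 peaks of block 5 at 20 Gy and 11 of 11 at 0 Gy, and in 81 of 123 peaks of block 4 at 20 Gy and 74 of 141 at 0 Gy. That estimate leaves out neighbouring peaks, whose fragments also count where they fall within the same 10000 bp. Neighbouring summits of block 5 lay a median of 5690 bp apart at 20 Gy and 5539 bp at 0 Gy. The excess over the estimate therefore need not lie outside called peaks. With no control library, fragments that gather in these blocks for other reasons than the antibody cannot be told apart from those it recovered.

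**Figure D2:**
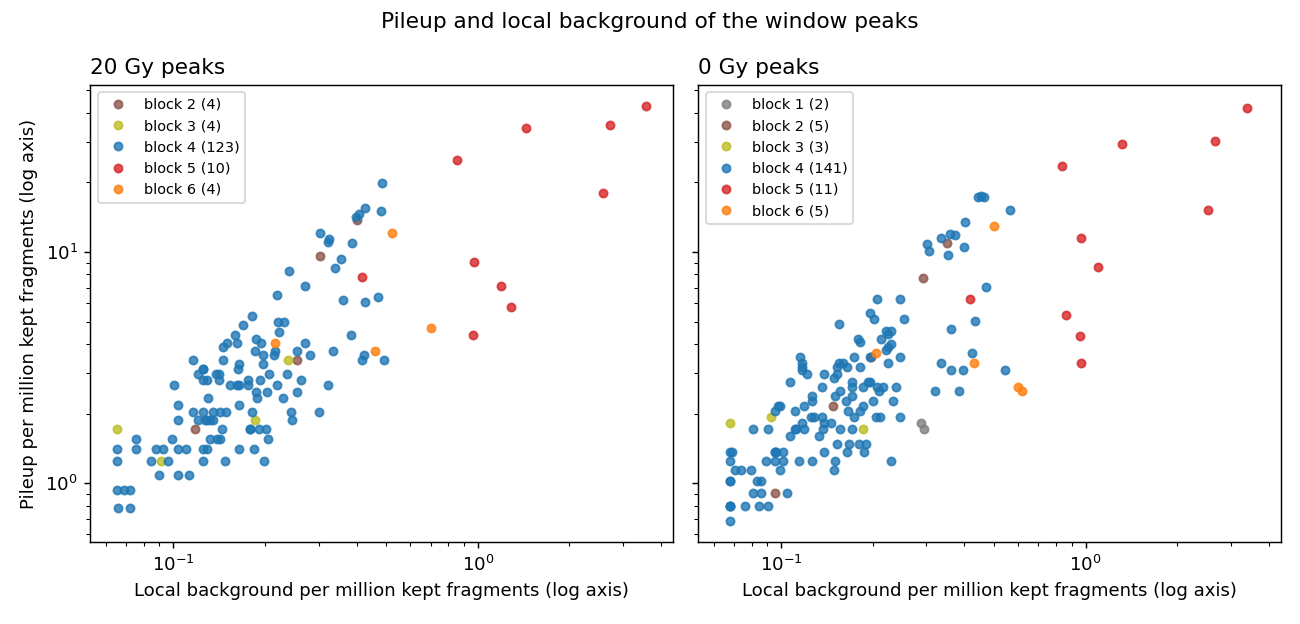
Each point is a window peak of the 20 Gy library (left) or the 0 Gy library (right), with its local background (horizontal) and its pileup (vertical), both per 1000000 kept fragments on log axes, coloured by block. Block 5, with median backgrounds of 7.97 and 8.50 fragments before scaling, lies mostly to the right of block 4 in both panels.

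The caller's lowest possible background, the average over the genome, was 0.419 fragments at 20 Gy and 0.595 at 0 Gy. It applied to 4 window peaks of irradiated cells (2.76%), 3 of them in block 4, and to 9 of unirradiated cells (5.39%), 8 of them in block 4. By block, summed pileup was 63.9% in block 4 and 27.3% in block 5 at 20 Gy, and 66.2% and 25.4% at 0 Gy. Those sums rest on covered lengths of 31835 bp and 2933 bp at 20 Gy, with mean pileups of 23.2 and 122, and on 39642 bp and 3329 bp at 0 Gy, with mean pileups of 29.1 and 143.

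Most peaks of the window were found in both libraries. An overlap of 1 bp or more with the other library was found for 117 of 145 peaks of irradiated cells (80.7%, 73.3 to 86.8) and for 117 of 167 peaks of unirradiated cells (70.1%, 62.5 to 76.9). Over all nuclear peaks the shares were 69.2% at 20 Gy and 54.3% at 0 Gy. Where the −log10 q-value was 20 or more, all 40 window peaks of irradiated cells were shared, and so were all 59 of unirradiated cells. From 10 to 20 the shares were 35 of 38 at 20 Gy (92.1%) and 35 of 41 at 0 Gy (85.4%). Between 5 and 10 they were 79.4% at 20 Gy and 45.0% at 0 Gy, and below 3 they were 5 of 14 at 20 Gy and 2 of 11 at 0 Gy. In every one of these strength classes the interval for the window overlapped that for all other nuclear peaks. The window's share was still the higher in each class at 20 Gy. At 0 Gy it was higher in each but that from 3 to 5 (18.75% against 25%). Applying the shares of the other peaks to the strengths found here would give 75.8% at 20 Gy and 66.6% at 0 Gy. Both values lie below the shares found in the window and inside their intervals.

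**Figure D3:**
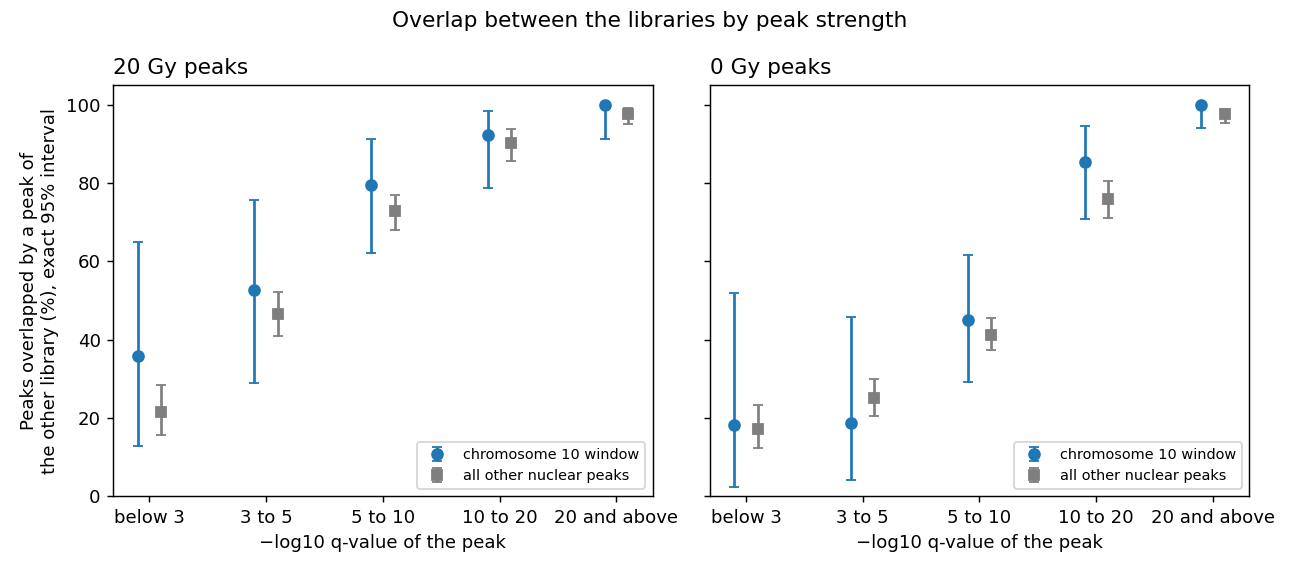
Points give the percentage of 20 Gy peaks (left) and 0 Gy peaks (right) overlapped by a peak of the other library, by the −log10 q-value of the peak, with exact 95% intervals as bars. Circles are the chromosome 10 window and squares all other nuclear peaks, and at 20 and above the window reaches 40 of 40 at 20 Gy and 59 of 59 at 0 Gy.

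The overlaps were one to one, which gave 117 pairs. Their summits lay a median of 20 bp apart, within 10 bp in 33 pairs (28.2%) and within 50 bp in 90 (76.9%), and 4 pairs were more than 100 bp apart, up to 374 bp. The median overlap was 87.6% of the stretch that both peaks covered together. Paired peaks had a median width of 250 bp at 20 Gy and 282 bp at 0 Gy, and 84 of 117 were narrower at 20 Gy, the library of lower depth. Pileups of the paired peaks kept much the same order, with a Spearman rho of 0.889 across the 117 pairs. These pairs share their libraries and the local mappability, so the value is a description.

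Once scaled for depth, the paired peaks were about as high at 20 Gy as at 0 Gy. Only peaks called in both libraries have a ratio, which leaves out 28 peaks at 20 Gy and 50 at 0 Gy. How far that condition shifts the ratios was not tested. Raw pileup was higher at 20 Gy in 8 of 117 pairs and equal in 6, as the depths differ. Scaled pileup was higher at 20 Gy in 59 pairs and lower in 58, so 50.4% were higher (41.0 to 59.8). Of the 929 nuclear pairs elsewhere 60.2% were higher at 20 Gy (56.9 to 63.3), and of all 1046 nuclear pairs 59.1%. The share elsewhere lies just above the window's interval, but the intervals overlap. In the chromosome 19 window 66 of 129 pairs were higher at 20 Gy (51.2%), and in those of chromosomes 1 and 5 65.9% and 59.0%. The median ratio of 20 Gy over 0 Gy was 1.02, with quartiles of 0.833 and 1.18, where the 929 nuclear pairs elsewhere had a median of 1.06. Summed over the pairs, the pileups were 4139 at 20 Gy and 5511 at 0 Gy, a depth-scaled ratio of 1.03 (0.986 to 1.07), against 1.03 (1.02 to 1.05) over the nuclear pairs elsewhere. A sum of this kind leans on the highest peaks, whereas the median weights all pairs alike.

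**Figure D4:**
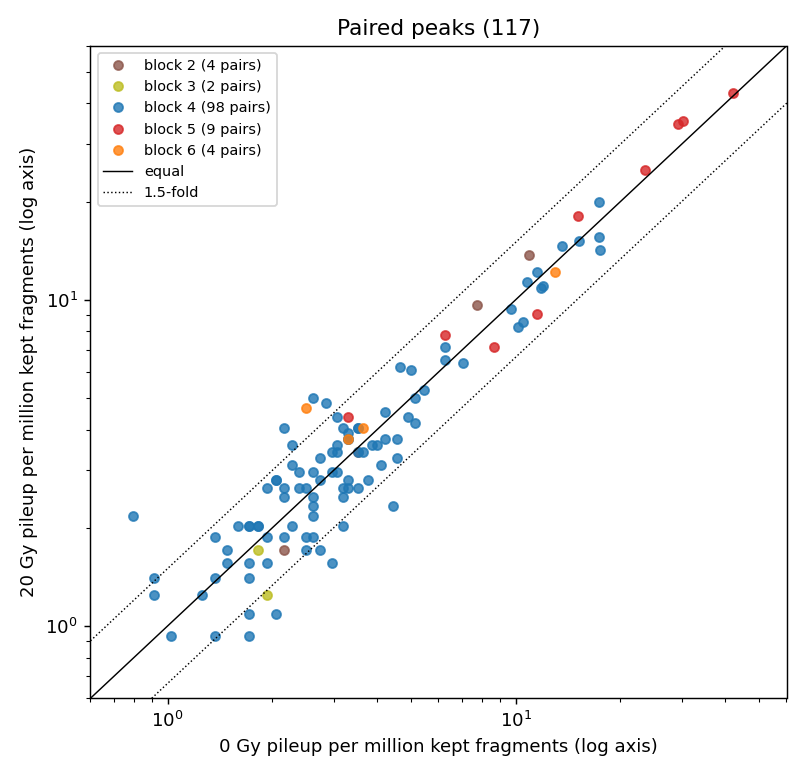
Each point is 1 of the 117 pairs, with its scaled pileup at 20 Gy (vertical) and at 0 Gy (horizontal) on log axes, coloured by block. The solid line marks equal values and the dotted lines a difference of 1.5-fold, which 15 of the 117 pairs passed.

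Among blocks 2, 4, 5 and 6 the summed ratio ran from 0.993 in block 4 to 1.17 in block 2. Block 3, with only 2 pairs, was not summed, and its pairs had ratios of 0.940 (0.395 to 2.16) and 0.644 (0.240 to 1.57). In block 4 the median of 98 pairs was 0.992, and the summed ratio was 0.993 (0.944 to 1.05). In block 5 the median of 9 pairs was 1.17, with 7 of 9 higher at 20 Gy, and the summed ratio was 1.08 (1.00 to 1.17, its lower bound just above 1). The summed intervals of blocks 4 and 5 overlap, which with 9 pairs in block 5 does not show that the blocks are alike. The 4 pairs of block 2 had a summed ratio of 1.17 (0.955 to 1.43) and the 4 of block 6 one of 1.10 (0.884 to 1.36). In block 5 the exceptions were the pair at 41891084 to 41891267, with pileups of 46 at 20 Gy and 76 at 0 Gy, and that at 41896831 to 41897013, with 58 at 20 Gy and 101 at 0 Gy. These neighbours had ratios of 0.828 (0.561 to 1.21) and 0.785 (0.559 to 1.10).

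Few single pairs differed by 1.5-fold. A depth-scaled pileup at least 1.5-fold higher at 20 Gy was found in 7 of 117 pairs (5.98%, 2.44 to 11.9), where 10.7% of all 1046 nuclear pairs reached it. At least 1.5-fold lower were 8 pairs (6.84%, 2.998 to 13.03), against 5.64% of all nuclear pairs. All 8 had a pileup under 20 in 1 or both libraries. That limit is on raw pileup and is stricter at 20 Gy, where 20 fragments scale to 3.11, against 2.28 at 0 Gy. It therefore drops low ratios more readily than high ones, so where the 8 fall is partly set by the limit. The interval of the ratio held 1 in 113 of the 117 pairs, lay above 1 in 3 (1.63% of all nuclear pairs did so) and below 1 in 1 (1.05% of all nuclear pairs). These intervals are not adjusted for the number of pairs.

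The pairs with the highest ratios, among those with pileups of at least 20 in both libraries, were each seen at low counts. Being on raw pileup, that limit drops low ratios more readily than high ones. At 40127920 to 40128178 the pileups were 32 (21.9 to 45.2) at 20 Gy and 23 (14.6 to 34.5) at 0 Gy, a ratio of 1.90 (1.08 to 3.41). At 42070562 to 42071060, in block 6, they were 30 at 20 Gy and 22 at 0 Gy, a ratio of 1.87 (1.04 to 3.39). At 41158379 to 41158652 they were 31 at 20 Gy and 25 at 0 Gy, a ratio of 1.70 (0.969 to 2.996). The lowest ratios were 0.718 (0.402 to 1.25) at 40140416 to 40140663, with pileups of 21 at 20 Gy and 40 at 0 Gy, and 0.760 (0.417 to 1.35) at 40862915 to 40863159, with 20 at 20 Gy and 36 at 0 Gy. Next came the pair of 58 and 101 fragments in block 5 given above. Outside that pileup limit, and singled out after its value was seen, the first peak of block 4 had the highest ratio of the window. It lies at 39936503 to 39936818 and had 14 fragments at 20 Gy and 7 at 0 Gy, a ratio of 2.74 (1.03 to 8.01). The lowest ratio of the window, also outside that limit and singled out after its value was seen, was 0.526, reached in a tie. At 40892085 to 40892825, with 15 fragments at 20 Gy and 39 at 0 Gy, its interval was 0.269 to 0.976. At 40246752 to 40246942, with 10 at 20 Gy and 26 at 0 Gy, the interval was 0.226 to 1.13 and held 1. The former was the only pair whose interval lay below 1.

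**Figure D5:**
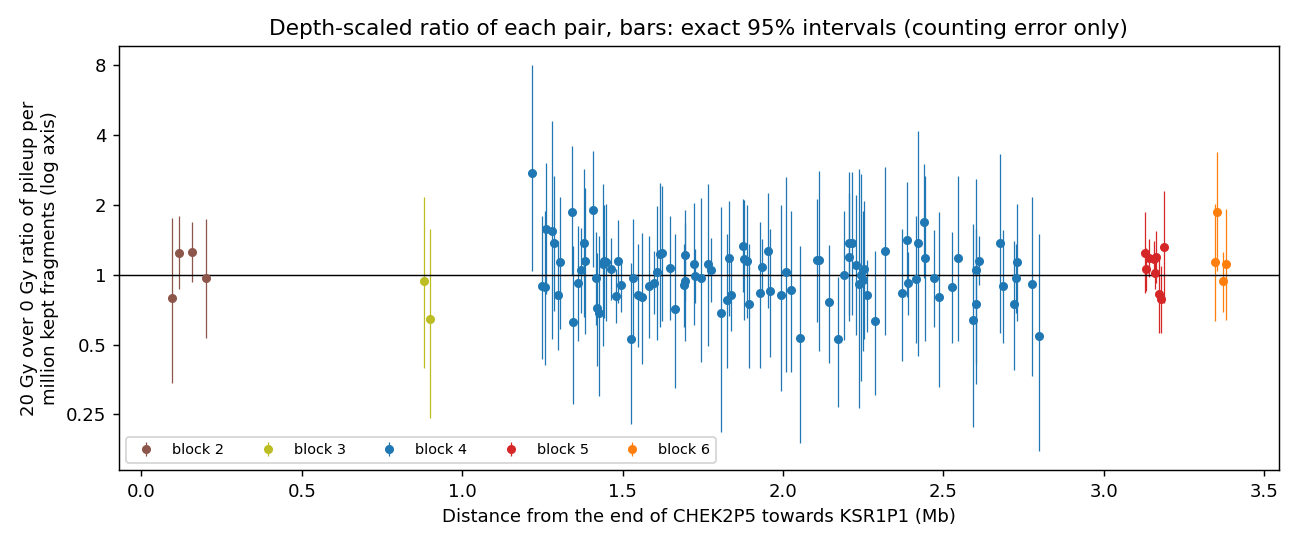
Points give the 20 Gy over 0 Gy ratio of scaled pileup (vertical log axis) for each of the 117 pairs against the distance in Mb from the end of CHEK2P5, coloured by block. Bars are exact 95% intervals, which held 1 in 113 pairs, and the horizontal line marks a ratio of 1.

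Peaks found in 1 library only were weak. The 28 at 20 Gy had a median pileup of 9.5 (5 to 37), and the 50 at 0 Gy a median of 12 (6 to 47), where shared peaks had medians of 21 at 20 Gy and 28 at 0 Gy. Pileup was under 20 in 25 of the 28 and in 43 of the 50. The nearest peak of the other library lay within 10000 bp of 22 of the 28 and of 34 of the 50. In block 4 neighbouring summits of the same library were themselves a median of 9773 bp apart at 20 Gy and 9278 bp at 0 Gy. Such closeness was not tested against that density, so it cannot be called particular to unshared peaks. Of the unshared 20 Gy peaks 7 were shorter than 177 bp. Scaled to the depth of the other library, the unshared 20 Gy peaks would have a median of 12.99 fragments at 0 Gy depth, and the unshared 0 Gy peaks 8.77 at 20 Gy depth. The lowest pileup that was reported as a window peak was 5 at 20 Gy and 6 at 0 Gy, so the median unshared peak lay above the lowest height at which the other library had a peak. The limit of the caller also depends on the local background, so a miss shows no absence of fragments.

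Among the unshared peaks of the 20 Gy library, the highest −log10 q-value, 15.1, was at 41088576 to 41088775, with 20 fragments (12.2 to 30.9). It lay 682 bp from a 0 Gy peak. That at 39630617 to 39630869, in block 3, had 22 fragments (13.8 to 33.3), 1849 bp from the nearest 0 Gy peak. Then came 41125361 to 41125549 with 19 fragments and 39983412 to 39983646 with 18, which lay 6073 and 2841 bp from one. For the 0 Gy library the highest was at 41904221 to 41904397 in block 5, with 47 fragments (34.5 to 62.5), 1345 bp from the nearest 20 Gy peak. Its length was 177 bp, the shortest that could be reported at 0 Gy. The 3 that followed lay in block 4, at 41283018 to 41283318 with 24 fragments, 40941299 to 40941505 with 21, and 40929135 to 40929319 with 20. They lay 824, 4553 and 4026 bp from the nearest 20 Gy peak.

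The first peak of the window was at 38814070 to 38814268 at 20 Gy, with 11 fragments (5.49 to 19.7), and at 38528618 to 38528841 at 0 Gy, with 15 (8.40 to 24.7). The nearest 20 Gy peak to that at 38528618 lay 285229 bp away. The last peak was shared, at 42099790 to 42100059 at 20 Gy with 26 fragments and at 42099790 to 42100066 at 0 Gy with 32. The outer limits of the peaks were thus the same on the side of KSR1P1 and differed by block 1 on the side of CHEK2P5. Both peaks of block 1 were weak, with −log10 q-values of 3.82 and 4.74. In the class from 3 to 5, 3 of 16 window peaks at 0 Gy were shared.

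Shared share and pileup were lower in the higher-coordinate part of block 4 than in the rest of it. Split at 40750000, a position chosen after the counts were seen, its lower-coordinate part had 59 of 66 peaks shared at 20 Gy (89.4%, 79.4 to 95.6) and 59 of 76 at 0 Gy (77.6%, 66.6 to 86.4). The higher-coordinate part had 39 of 57 shared at 20 Gy (68.4%, 54.8 to 80.1) and 39 of 65 at 0 Gy (60%, 47.1 to 72.0). Peaks were also lower there, with median pileups of 13 against 19.5 at 20 Gy and 17 against 23 at 0 Gy. Peaks of 20 or more by −log10 q-value were 6 of 57 in the higher-coordinate part and 23 of 66 in the lower-coordinate part at 20 Gy, and 15 of 65 and 31 of 76 at 0 Gy. The summed depth-scaled ratio of the pairs was 0.984 (0.9004 to 1.07) in the higher-coordinate part and 0.998 (0.938 to 1.06) in the lower-coordinate part. The intervals of the parts overlap both for the shared share, at each dose, and for the ratios between the libraries. Within the higher-coordinate part the shared share was not uniform. From 41.25 to 41.5 Mb it was 11 of 13 at 20 Gy (84.6%) but 11 of 22 at 0 Gy (50%).

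Windows of the same length over the centromeres of chromosomes 1, 5 and 19 held more peaks than that of chromosome 10 in both libraries. The chromosome 10 window had 145 peaks at 20 Gy (122 to 171) and 167 at 0 Gy (143 to 194). The chromosome 1 window, from 121 to 126 Mb, had 183 and 213, that of chromosome 5, from 46 to 51 Mb, 178 and 219, and that of chromosome 19, from 24 to 29 Mb, 170 and 223, each for 20 Gy and then 0 Gy. At 20 Gy the intervals of these counts, 157 to 212, 153 to 206 and 145 to 198, overlap that of chromosome 10. At 0 Gy the intervals of 185 to 244 on chromosome 1 and 191 to 250 on chromosome 5 overlap it narrowly, and that of chromosome 19, 194.7 to 254, lies just above its upper bound of 194.3. The shared share at 20 Gy was 80.7% on chromosome 10 and 72.1%, 75.3% and 75.9% in the other windows. At 0 Gy it was 70.1% on chromosome 10, with an interval of 62.5 to 76.9, and 62.0%, 61.2% and 57.8% in the others, with intervals of 55.1 to 68.5, 54.4 to 67.7 and 51.1 to 64.4. The intervals of these shares overlap that of chromosome 10 in both libraries. Median scaled pileups were 2.80 on chromosome 10 and 2.18, 2.02 and 2.02 in the others at 20 Gy. The values for 0 Gy were 2.50, and 1.82 in each of the others. Ratios of scaled pileup over the pairs had a median that was 1.02 on chromosome 10, 1.13 over 132 pairs on chromosome 1, 1.05 over 134 on chromosome 5 and 1.00 over 129 on chromosome 19. No difference between these windows was tested, since each value comes from the same single pair of libraries.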

How the data were processed

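AIM2 immunoprecipitates of 1 irradiated and 1 unirradiated HaCaT culture were compared, grouped by the labelled treatment, since the labels' treatment protocol names irradiation under both samples. The submitters' processing notes name Trimmomatic 0.36, BWA 0.7.15-r1140, MACS2 2.1.2, deepTools 3.2.1 and the build GRCh38.p13. MACS2 ran on each library separately, per the file headers, on fragment pairs, with a q-value limit of 0.05 and at most 1 fragment per position, without a control, from an alignment named as unique and free of duplicates. The deposited signal is pileup, unscaled coverage by fragments. The deposited −log10 p-values and q-values and the fold enrichment, a ratio, are set against local background from that library itself. Positions are 1-based.

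Window members and lists were chosen with earlier results of these data known. Pileup was divided by kept fragments. Pairs are mutual best overlaps of at least 1 bp. Counts carry exact Poisson intervals, shares Clopper-Pearson intervals, and ratios conditional binomial intervals. Local background was taken as (pileup + 1) / fold enrichment − 1. Named peaks were the 8 strongest pairs, the 4 strongest unshared peaks of each library, the 3 highest and 3 lowest ratios at pileups of at least 20, and the widest, first and last peaks. Genes came from RefSeq (GRCh38.p14, whose chromosome coordinates equal those of GRCh38.p13). No sequence is printed because no genome sequence was used here. With 1 library per group no test between groups was made. Overlap and ratio steps were tested on simulated data. Computation used Python 3.11.15, pandas 2.3.3 and SciPy 1.17.1.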

Additional observations from a re-analysis of the deposited data

How the results depend on the processing

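Of 84 values recomputed under other settings, 19 moved and 65 did not, where a count or covered length had to move by over 1.5 times and any other value past its interval. By that measure the window counts above a −log10 q-value limit of 5, 112 at 20 Gy and 140 at 0 Gy, did not move, though both lie below the intervals of the full counts. Merging peaks within 10000 bp left 69 regions over 452211 bp at 20 Gy and 72 over 538478 bp at 0 Gy, which were 7.18% and 6.34% of the nuclear regions, with 89.9% and 83.3% shared. A −log10 q-value of at least 5 put 11.2% and 10.2% of nuclear peaks in the window at 20 Gy and 0 Gy. It raised the shared share to 88.4% and the median pileup to 3.42 per 1000000 at 20 Gy, and the gene-free share to 100% at 0 Gy, as did the window from 39 to 42 Mb (100%). Equal numbers of top peaks gave 77.2% shared at 0 Gy, and scaling by fragments before filtering gave median pileups of 2.33 and 2.096 per 1000000 at 20 Gy and 0 Gy. The lower medians after scaling by fragments before filtering follow from the larger divisor. The other settings leave fewer or merged peaks, and what moved each of their values was not tested. The median ratio of pairs was 0.910 for fold enrichment in place of pileup, with 33.3% of pairs higher at 20 Gy. The caller adds 1 to pileup and background, which lowers fold enrichment in the shallower library, and without that addition the median ratio was 1.02. The median ratio fell on the other side of 1 relative to the nuclear pairs elsewhere (0.959) and, barely, in the narrower window (0.999). It was 1.07 where both pileups were at least 20, a raw limit that drops low ratios more readily, and 0.946 over the other pairs. Block gaps of 50 and 200 kb, chosen after seeing the data, gave 6 and 5 blocks. No paired analysis was possible because there is 1 library at each dose.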
